A study of Mus musculus with 25 samples.

Results

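Foxb1 and Foxb2 are the members of the FoxB branch of the forkhead transcription factors, and each was read by 1 probe set (transcript cluster) carrying its symbol alone, so that the set described here has 2 of the 18820 genes that could be named on the array. RNA had been taken from dissected mammillary neuroepithelium of C57BL/6 mouse embryos at stage E10.5 and hybridised to Affymetrix Mouse Gene 1.1 ST arrays. Of 25 arrays, 13 came from Lhx5 mutants (labelled Lhx5 KO) and 12 from wild types (WT). The mutants carried an Lhx5 allele with loxP sites in its introns on both chromosomes (Lhx5 fl/fl). They had not been crossed to Cre, so that the exons were still in place, and the study treats the allele as a hypomorph. No transgene or further allele is given for either group, and the labels call the arrays biological replicates without saying how many embryos went into each.

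Forkhead proteins bind DNA through a winged helix domain, and many of them set regional identity in the embryo. The mammillary neuroepithelium gives rise to the mammillary body, a relay between hippocampus and thalamus at the caudal end of the hypothalamus. Foxb1 is one of its early markers and mice without it form a defective mammillary body, while Foxb2, its closest relative, is expressed in parts of the embryonic brain and has been studied far less. LHX5 is a LIM-homeodomain protein, a family that binds DNA around TAAT cores.

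Foxb1 (Entrez 64290) lies on chromosome 9 at 69757710 to 69760940 and Foxb2 (Entrez 14240) on chromosome 19 at 16872316 to 16873830 in the GRCm38.p6 assembly. The promoter of Foxb2 is shown because this gene carries the larger difference between the genotypes. The RefSeq stretch below holds the 250 bases before its start (chr19:16873831-16874080, minus strand, GRCm38.p6), with capitals on each TAAT or CCAAT on either strand.
Foxb2 promoter: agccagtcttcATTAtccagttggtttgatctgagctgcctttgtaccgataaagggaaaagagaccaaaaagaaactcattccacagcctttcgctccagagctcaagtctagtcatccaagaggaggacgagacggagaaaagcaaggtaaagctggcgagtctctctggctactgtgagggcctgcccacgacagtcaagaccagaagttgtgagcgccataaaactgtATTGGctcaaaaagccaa

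TAAT occurred 1 time, on the opposite strand and 239 bases before the start, and 54.9% of the 32851 promoter windows of this length held it. CCAAT occurred 1 time, also on the opposite strand and 18 bases before the start, against 33.8% of windows. Neither TAATTA, found in 4.8% of windows, nor TATAAA, found in 12.4%, was among these letters on either strand. GC made up 48.4% of the bases, against a median of 52.4% over all windows. A promoter of Foxb1 was not analysed here.

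The arrays fell into 3 sets. In the deposited table the mean of KO replicates 1 to 10 (10 arrays) equalled the mean of KO replicates 11 to 13 (3 arrays) probe set by probe set, with a median absolute gap of 1.33e-06. KO 1 to 10 were therefore given a term of their own in the fit, and every KO minus WT difference below compares KO 11 to 13 with the 12 WT arrays. Array medians lay between 4.64 and 4.76 (log2), and 14 misprinted cells, 0 of them in the Foxb1 or Foxb2 clusters, were treated as missing. WT10 stood apart from the other WT arrays, with the lowest mean level of the mammillary transcription factors (7.29) and the highest of the midbrain floor plate genes (8.45). Its effect on the Foxb2 difference and on part of the correlations within WT is given beside them.

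Lhx5, the targeted gene, ran from 7.67 to 8.38 with a median of 7.89 on the WT arrays. It read 7.82, 7.84 and 8.11 on KO 11 to 13, and from 7.43 to 8.60 with a median of 7.96 on KO 1 to 10. The sets overlapped, and the difference of -0.04 on the log2 scale was within the spread (exact permutation over the 455 splits of 3 and 12 arrays, p = 0.743). Since the exons are kept in this allele, the level of the transcript does not check the labels. The other mammillary markers Nkx2-1 (mean 7.82 in WT), Sim1 (8.24), Sim2 (7.75) and Lhx1 (6.35) lay above the array medians. The genes of midbrain, hindbrain and spinal cord position had a mean between 4.23 and 4.62 on each WT array. Within that list Otx2 (WT mean 9.63), En1 (5.94), Pax3 (5.82), Pax7 (5.62) and En2 (4.77) lay above the array medians. Its Hox genes, Gbx1 and Egr2 lay below them. The WT arrays had means of 7.29 to 7.78 for the mammillary list, 7.47 to 8.35 for the thalamic and pretectal list and 7.11 to 8.45 for the midbrain floor plate list. The levels thus do not set the tissue apart from these neighbours.

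Foxb2 was the paralogue with the larger difference. On the WT arrays its log2 level ran from 4.96 to 6.51 with a median of 5.86. On KO 11 to 13 it was 4.37, 4.98 and 4.94, and on KO 1 to 10 it ran from 4.48 to 5.20 with a median of 4.71. WT10, the lowest WT array, was the only one to fall among the mutants, and the other 11 WT arrays were above every mutant array. Of KO 11 to 13, 2 arrays lay below every WT array, as did 8 of KO 1 to 10. Since KO 1 to 10 carry the mean of KO 11 to 13, their place against WT is not independent of those arrays. The share of all clusters with such a separation was not counted.

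The mean of Foxb2 was 5.89 ± 0.43 (SD, n = 12) in WT and 4.76 ± 0.34 (SD, n = 3) in KO 11 to 13. The difference was -1.13 ± 0.21 (SE) on the log2 scale (95% interval, -1.57 to -0.69), which puts the mutant at 45.8% of the wild-type level (ratio 0.458, interval 0.337 to 0.621). In the limma fit with the term for KO 1 to 10 this gave an unadjusted p of 1.66e-05 and an adjusted p of 0.0546 over 28940 clusters, so that Foxb2 was not called at the threshold of 0.05. With genotype as the only term, which counts the aligned KO 1 to 10 as full replicates, the adjusted p was 1.02e-05. The mutant mean lay close to the array medians (4.64 to 4.76), and a background level was not estimated. The exact permutation test on KO 11 to 13 and WT gave p = 0.0044, where 0.0022 is the smallest value possible with 455 splits. Without WT10, the WT array with the lowest Foxb2 level, the difference was -1.21 and the adjusted limma p was 0.00653. This was the lowest adjusted p of the 25 fits that left out 1 array, and the highest was 0.195, without KO13.

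Foxb1 showed a small difference. Its log2 level ran from 6.36 to 7.22 with a median of 6.74 in WT, was 6.41, 6.51 and 6.80 on KO 11 to 13, and ran from 6.13 to 6.99 with a median of 6.65 on KO 1 to 10. All 3 arrays of KO 11 to 13 lay inside the WT range, while 3 of KO 1 to 10 lay below it. The means were 6.73 ± 0.24 (SD, n = 12) in WT and 6.57 ± 0.20 (SD, n = 3) in KO 11 to 13. The difference of -0.16 ± 0.17 (SE) had an adjusted limma p of 0.800, or 0.297 with genotype alone, and an exact permutation p of 0.319. Its 95% interval, -0.51 to 0.19, corresponds to a ratio of mutant to wild type between 0.704 and 1.14, so that a lower level down to the first of these values is not excluded by the interval.

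**Figure D1:**
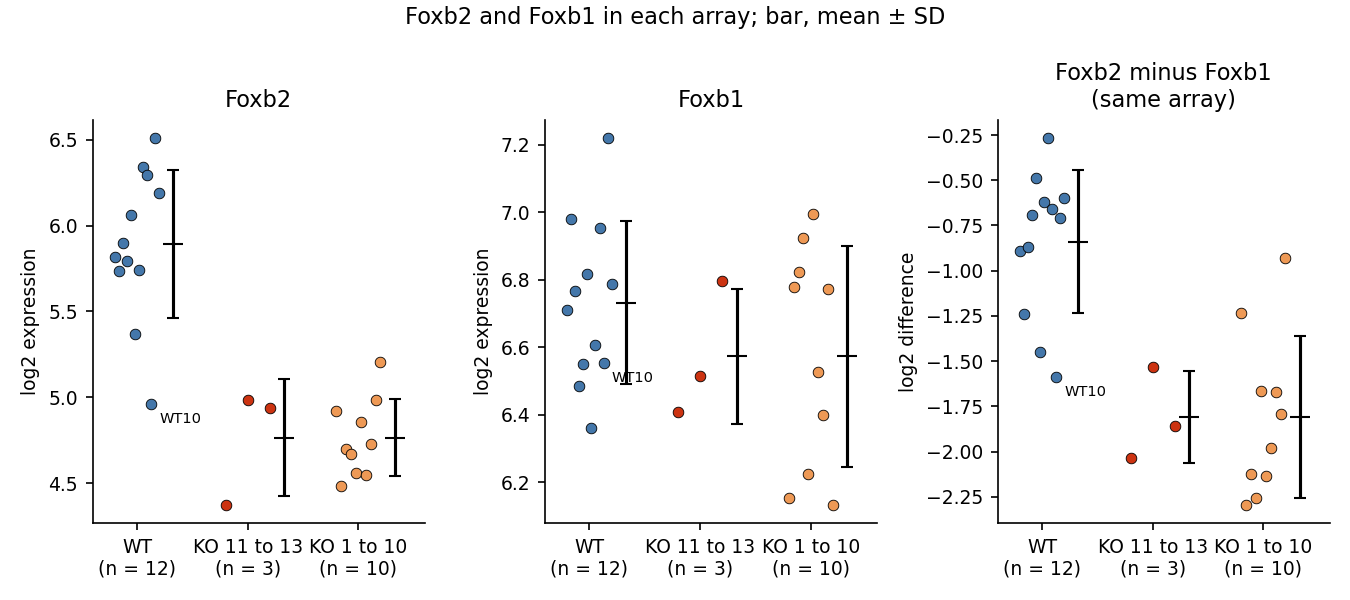
Log2 expression of Foxb2 (left) and Foxb1 (middle), and the log2 difference Foxb2 minus Foxb1 within each array (right), for the WT, KO 11 to 13 and KO 1 to 10 arrays; each point is 1 array and the bars show the mean ± SD of the set. For Foxb2, 11 of 12 WT arrays lie above all mutant arrays and WT10 lies among them, whereas the Foxb1 levels of the sets overlap. KO 1 to 10 carry the mean of KO 11 to 13, so their place against WT is not independent. The share of all clusters with such a separation was not counted.

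With the term for KO 1 to 10, 0 of the 2 FoxB genes were called by limma, against 0.0242% of all clusters (7 of 28940). At an unadjusted p below 0.05 there was 1 of the 2, Foxb2, against 10.3% of all clusters in either direction and 4.15% lower. With genotype alone 1 of the 2 was called, and it was lower in the mutant, against 16.7% of all clusters called in either direction and 6.99% called lower. All clusters include those without a symbol. Of the 18820 named genes, 886 were lower and 911 higher at an unadjusted p below 0.05 with the term. With genotype alone 1489 named genes were called lower and 1489 higher.

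The responses of the paralogues were compared through the difference of their log2 levels within each array, in which the probe response of each cluster cancels between the groups. Foxb2 minus Foxb1 ran from -1.59 to -0.27 in WT. It was -2.04, -1.53 and -1.86 on KO 11 to 13 and ran from -2.29 to -0.93 on KO 1 to 10. Both WT10 and WT6 had strongly negative values (-1.59 and -1.45), and 2 of KO 11 to 13 were below every WT array. The share of other gene pairs with such a separation was not counted. The means were -0.84 ± 0.40 (SD, n = 12) in WT and -1.81 ± 0.26 (SD, n = 3) in KO 11 to 13, so that the KO minus WT value of this difference was -0.97 (exact permutation over 455 splits, two-sided p = 0.0044). The same value lay between -1.11 (without KO12) and -0.85 (without KO11) when each of the 15 arrays was left out in turn, with exact p from 0.00275 to 0.022, and was -1.04 without WT10.

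These arrays read whole dissected tissue, in which fewer cells expressing a gene and less RNA per cell cannot be told apart. Markers of other cell types were set beside the differences. The 7 measured neuronal markers, among them the microtubule-associated Dcx and Map2, had a median difference of -0.19 with 0 called by limma and 0 at an unadjusted p below 0.05, and their mean level lay between 8.38 and 8.78 on KO 11 to 13, inside the WT range of 7.83 to 9.44. The endothelial, surface and oral ectoderm, and macrophage lists had median differences of 0.11, 0.26 and 0.12, and in each of them 1 of KO 11 to 13 had a mean level above every WT array. The erythroid and cranial mesenchyme lists had median differences of 0.31 and 0.08, with KO 11 to 13 inside the WT range. In each of these lists 0 genes were called with the term. All 7 neuronal markers were lower in the mutant, as were 2 of 10 mesenchymal genes, against 9589 of 18820 named genes. In the endothelial, ectoderm, macrophage and erythroid lists 0 genes were lower. With genotype alone 2 endothelial genes and 1 ectodermal gene were called higher, against 9.68% of all clusters. Over all named genes the median difference was -0.00252.

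Of the lists of neighbouring brain regions, some had larger differences and others did not. The median difference was -0.38 in the telencephalic list, -0.14 in the thalamic and pretectal list and -0.01 in the midbrain, hindbrain and cord list. In the tuberal and anterior hypothalamus list all 15 differences were negative (median -0.54), with 0 called with the term. With genotype alone 8 were called lower, against 6.99% of all clusters. The mean level of this list was below every WT array on 2 of KO 11 to 13. For this list and the cell type lists above, how often other gene lists leave the WT range was not counted. All 9 measured genes of the midbrain floor plate were higher (median 0.40), with 0 called with the term. With genotype alone 6 were called higher, against 9.68% of all clusters. The mean level of the floor plate list on KO 11 to 13 (7.84 to 8.24) stayed inside the WT range of 7.11 to 8.45. The part of these tissues and regions in the Foxb2 difference was not tested.

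Among the settings tried, the adjusted p of Foxb2 lay on both sides of 0.05. It was 0.0485 after centring of the arrays, 0.0208 with array weights and 0.0497 with limma-trend. It was 0.08 after repeated quantile normalization and 0.138 in a fit of KO 11 to 13 and WT alone. Leaving out 1 array at a time gave differences between -1.24 (without KO12) and -0.93 (without KO11). The adjusted p went below 0.05 in 5 of 25 cases, without KO3, KO8, KO10, WT6 or WT10, and was 0.141 without KO11 and 0.195 without KO13. Without KO3 or KO8 the unadjusted limma p was larger (2.39e-05 and 2.46e-05) than with all arrays (1.66e-05). In those 2 fits 19 clusters were called, against 7 with all arrays, and the adjusted p depends on the other clusters too. Foxb1 was not called under any of these settings, and its difference ran from -0.27 (without KO13) to -0.08 (without KO11).

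**Figure D2:**
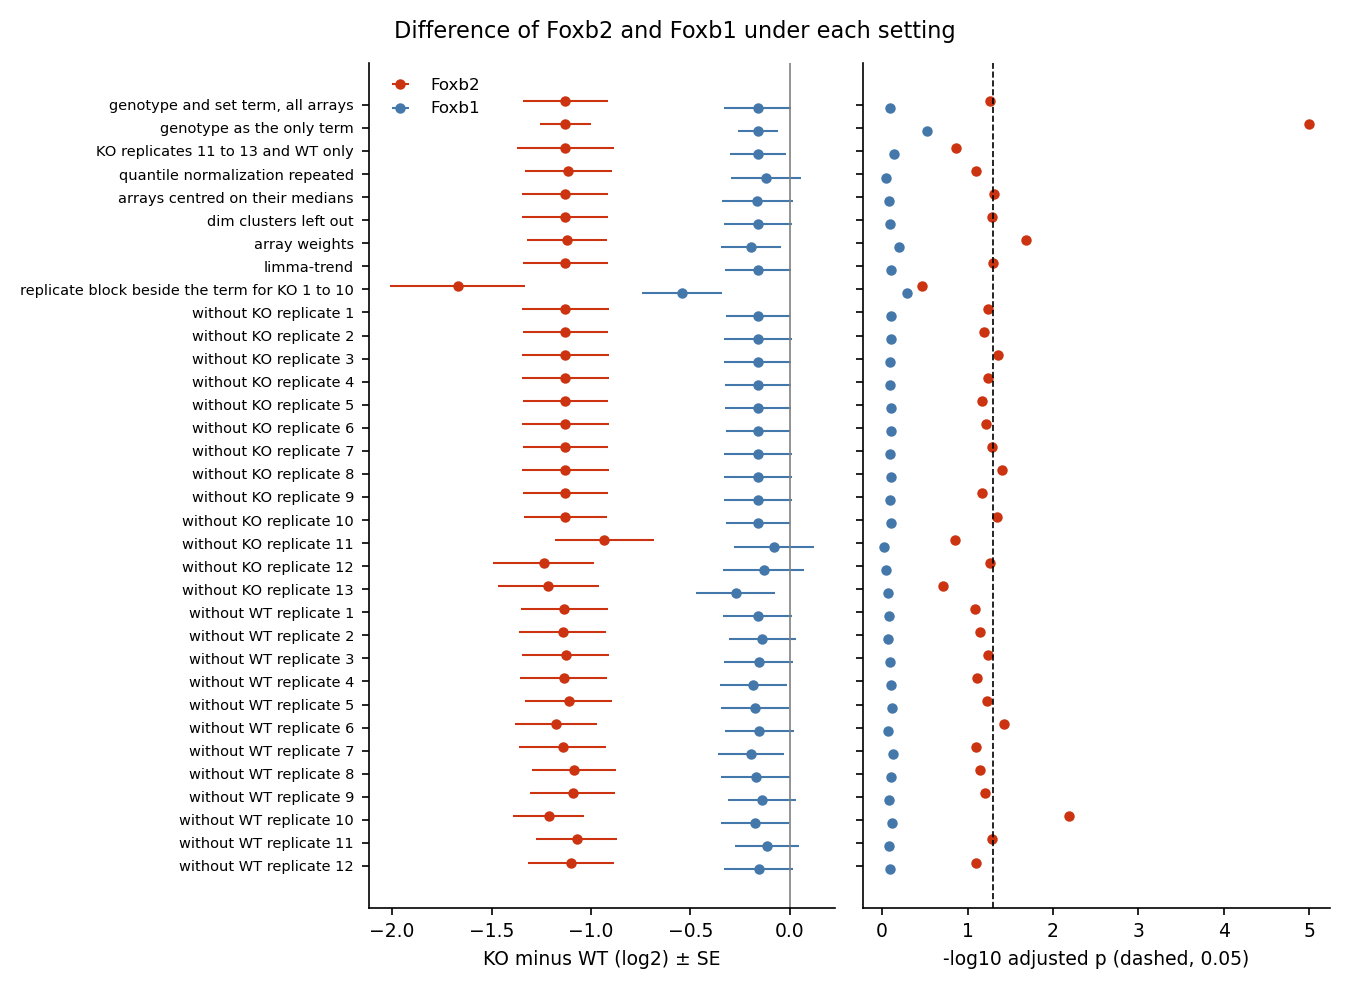
Difference KO minus WT (log2, point with SE, left) and -log10 of the adjusted limma p (right, dashed line at an adjusted p of 0.05) for Foxb2 and Foxb1 under each setting, 1 row per setting. The Foxb2 differences stay between -1.67 and -0.93 while the adjusted p crosses the line with small changes of setting, and Foxb1 stays to the left of the line throughout.

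The forkhead family was represented by 41 genes with a cluster of their own. With the term for KO 1 to 10, limma called 0 of 41, with 2 lower and 4 higher at an unadjusted p below 0.05. The shares were 4.15% and 6.2% of all clusters, and the counts were 886 and 911 of 18820 named genes. The median difference was 0.03, against -0.00252 over all named genes, and 15 of the 41 were lower in the mutant. Foxb2 had the lowest value, followed by Foxn4 (-0.55 ± 0.49, SE), a factor of retinal and spinal interneuron progenitors and by Foxb1. The next smallest p among the lower genes after Foxb2, Foxj3 and Foxn4 was that of Foxk2 (-0.06 ± 0.05). Foxb2 was therefore the only forkhead gene whose difference was below -1, and the wide error of Foxn4 leaves its value uncertain.

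With genotype alone 9 of the 41 forkhead genes were called, against 16.7% of all clusters. Of the 18820 named genes, 1489 were called lower and 1489 higher. Among the 9, only Foxb2 and Foxj3 (-0.12 ± 0.06, SE) were lower, against 6.99% of all clusters, and 7 were higher, against 9.68%. The higher genes included the floor plate factors Foxa1 (0.47 ± 0.20) and Foxa2 (0.40 ± 0.23), Foxe1 (0.62 ± 0.21) of oral ectoderm and thyroid, and Foxj1 (0.33 ± 0.15), the regulator of motile cilia. The others were Foxl1 (0.74 ± 0.25), Foxc2 (0.45 ± 0.23) and Foxf2 (0.36 ± 0.19), which are mesenchymal genes in many organs. In the fit with the term, the adjusted p of these 7 genes was 0.274 or above.

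**Figure D3:**
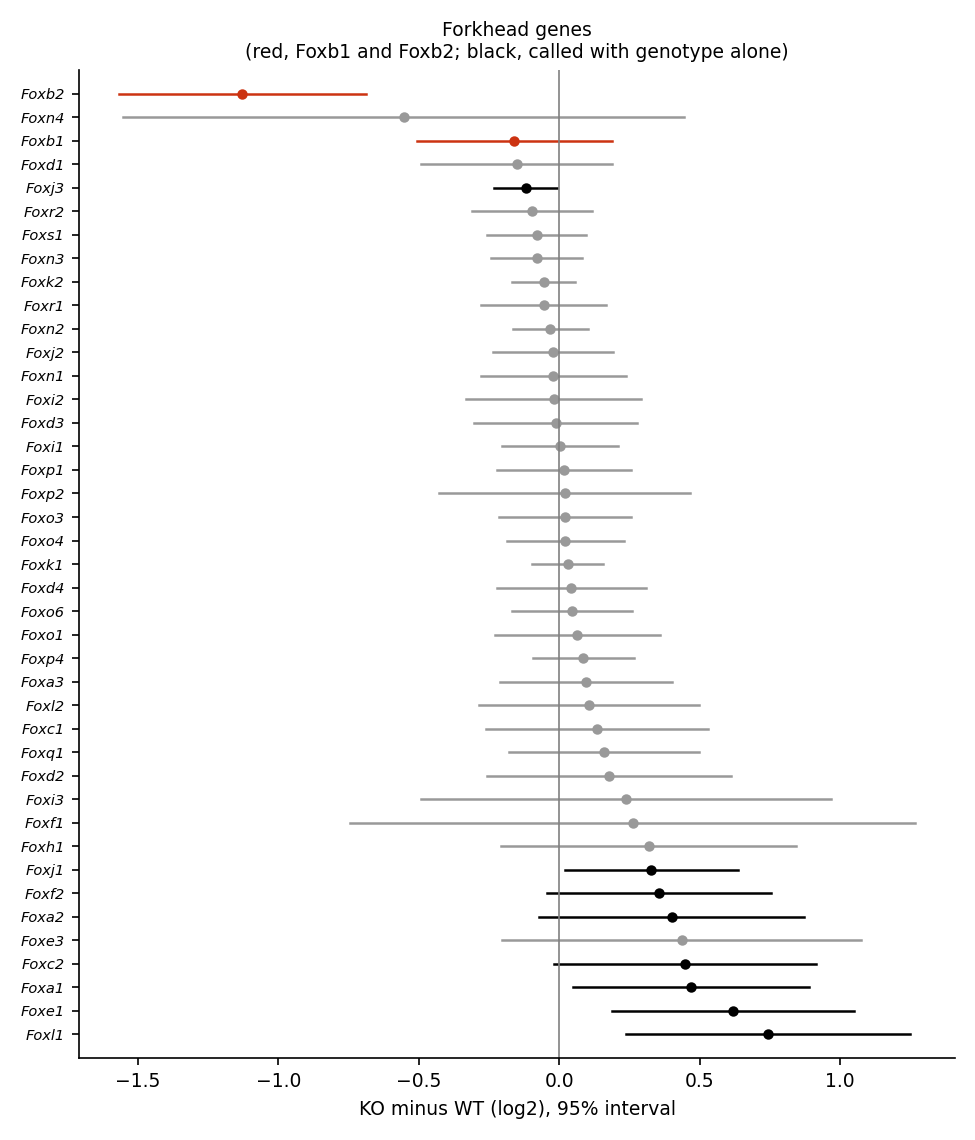
Difference KO minus WT (log2) with its 95% interval for 41 forkhead genes, ordered by the difference, from the limma fit with a term for KO 1 to 10; red marks Foxb1 and Foxb2, black the other genes called with genotype alone. Foxb2 stands at the low end at -1.13 and Foxb1 at -0.16 has an interval that crosses 0.

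The mammillary transcription factors gave a second frame for the FoxB genes. Of 13 listed, 12 were measured and limma called 0 with the term, with 3 lower at an unadjusted p below 0.05 (4.15% of all clusters). With genotype alone 3 were called, all lower, against 6.99% of all clusters. These were Otp (-1.28 ± 0.55, SE), a homeobox gene of hypothalamic neuroendocrine neurons, and the homeobox genes Barhl1 (-0.79 ± 0.22) and Nkx2-4 (-0.72 ± 0.20). Foxb2 thus had a difference close in size to that of Otp with a smaller SE (0.21 against 0.55). Sim1 (0.33 ± 0.21), Sim2 (-0.09 ± 0.14), Lhx1 (0.10 ± 0.45), Nkx2-1 (-0.33 ± 0.24), Fezf2 (-0.41 ± 0.26), Emx2 (-0.07 ± 0.15), Lef1 (-0.06 ± 0.10), Arnt2 (-0.01 ± 0.07) and Uncx (0.07 ± 0.30) were not called in either fit.

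The paralogues also differed in how much they varied. Within WT, Foxb2 spread over 1.55 log2 units and Foxb1 over 0.86, and within KO 1 to 10 Foxb2 spread over 0.72 and Foxb1 over 0.86. The lowest WT array after WT10 (4.96) was WT6 at 5.37. Foxb1 and Foxb2 correlated weakly within WT (Pearson r = 0.42, Spearman rho = 0.29, n = 12, permutation p = 0.171 and 0.355), and r was 0.19 without WT7 and WT11, the arrays farthest from the Foxb1 median. Within KO 1 to 10, r was -0.29 and rho -0.32 (n = 10, permutation p = 0.412 and 0.367), and r turned to 0.40 without KO1 and KO10. Neither sign was therefore held firmly by these arrays.

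Foxb2 and Lhx5 had r = 0.55 and rho = 0.47 within WT (n = 12, permutation p = 0.0648 and 0.128), which came down to r = 0.09 without WT10 and WT11 and so rests on those arrays. Within KO 1 to 10 the values were r = -0.03 and rho = -0.10 (permutation p = 0.923 and 0.784), and r was 0.49 without KO9 and KO10. Foxb1 and Lhx5 had r = 0.28 and rho = 0.08 in WT (permutation p = 0.374 and 0.817) and r = 0.16 and rho = 0.13 in KO 1 to 10 (permutation p = 0.655 and 0.731). Without the 2 farthest arrays r was 0.27 and 0.12. Over these 6 relations the lowest adjusted permutation p was 0.389 for r and 0.735 for rho, so that none passed.

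Genes were then ranked by the correlation of their log2 levels with Foxb1 or with Foxb2 over all 25 arrays after the means of the 3 sets had been removed. These r values describe arrays that share a dissection, a normalization and their tissue make-up, and they carry no test. Over 18819 other genes the 1st and 99th percentiles of r were -0.63 and 0.60 for Foxb1 and -0.65 and 0.57 for Foxb2, so that high values at the ends of a ranking are built into it. Foxb1 and Foxb2 had r = 0.18 with each other, and the 10 genes most like each had 0 genes in common.

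The genes most like Foxb1 were led by Fam181b (r = 0.83; 0.71 in WT, 0.91 in KO 1 to 10), the LIM-domain gene Fhl1 (0.80) and Ercc6l (0.77), a helicase of mitotic chromosomes. Next came Nr0b1 (0.76), a nuclear receptor of hypothalamus, adrenal and gonad, which was also lower in the mutant (-0.67 ± 0.27, SE) and was called with genotype alone (adjusted limma p = 0.00781) but not with the term. The others were Bcl2l13, the RNA polymerase subunit gene Polr1c, the replication licensing gene Mcm3, Isg20l2, Atp4a and the glutamine transporter gene Slc1a5, with r from 0.74 to 0.76. All 10 had r above 0.5 in WT and in KO 1 to 10, but these arrays are among those that picked the genes. High values in each set therefore follow in part from the ranking. Of the 10 genes, 0 stayed among the first 10 with WT alone and 2 with KO 1 to 10 alone. At the other end stood the kinase genes Prkg1 (-0.79) and Camk2d (-0.79), the splicing factor gene Rbfox2 (-0.79), Tns1 (-0.77) and Dnm1 (-0.76), the dynamin of nerve terminals.

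The genes most like Foxb2 were led by Orc5 (r = 0.78; 0.89 in WT, 0.91 in KO 1 to 10), a subunit of the complex that marks replication origins. It was followed by Fam169a (0.77), the small nucleolar RNA-binding protein gene Snu13 (0.76), Etfbkmt (0.75), the ribosomal protein genes Rpl35 (0.74) and Rpl12 (0.72), Lactb2 (0.72), Pglyrp2 (0.72), Gnl3 (0.70) and Gpr89 (0.69). Their differences between mutant and wild type ran from -0.05 to 0.08, all smaller in size than the -1.13 of Foxb2, and 0 of 10 were called by limma in either fit. The lowest r was that of St6gal1 (-0.88; -0.89 in WT, -0.91 in KO 1 to 10), a sialyltransferase gene, followed by the lysosomal lipase gene Lipa (-0.79), Bace1 (-0.78), the desaturase gene Fads2 (-0.77) and B3galt1 (-0.77). Without WT10, r within WT was 0.82 for Orc5 and -0.85 for St6gal1. The values within WT and within KO 1 to 10 come from arrays that also made the ranking, so they are no separate check. With WT alone 4 of the 10 highest genes stayed among the first 10, and with KO 1 to 10 alone 1 did. The rankings themselves were less firm, since 3 of the 10 genes most like Foxb2 were found again without WT10, and 4 of the 10 most like Foxb1 without KO1.

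Neuronal genes ran against both paralogues in WT, and against Foxb2 in the mutants too. All 7 measured neuronal markers had negative r with Foxb2, from -0.72 to -0.52 in WT and from -0.86 to -0.63 in KO 1 to 10, and without WT10 the WT values ran from -0.81 to -0.46. The intermediate filament gene Ina (-0.69 over all arrays) and the RNA-binding protein gene Elavl4 (-0.67) were the most negative. With Foxb1 the 7 had r from -0.78 to -0.67 in WT, led over all arrays by the microtubule genes Dcx (-0.50) and Map2 (-0.46), but from -0.35 to 0.12 in KO 1 to 10. Whether these r values differ between the sets was not tested.

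Among the mammillary transcription factors r with Foxb2 ran from -0.62 to 0.53, and several values within WT rested on WT10. The hypothalamic homeobox gene Nkx2-1 (r = 0.53 over all arrays; 0.77 in WT, 0.54 without WT10, 0.28 in KO 1 to 10), its relative Nkx2-4 (0.40), Sim2 (0.53) and Emx2 (0.38) were positive. The LIM-homeodomain gene Lhx1 (-0.62) and the homeobox gene Uncx (-0.60) were negative, with r of -0.64 and -0.62 in WT and -0.66 and -0.77 in KO 1 to 10. Fezf2 (0.28), Lef1 (0.14), Barhl1 (0.08), Otp (-0.18), Sim1 (-0.30) and Arnt2 (-0.36) lay between. Without WT10 the r of Otp within WT went from -0.08 to -0.83, the lowest of the 12, that of Fezf2 from 0.53 to 0.05, that of Barhl1 from 0.47 to 0.15, and that of Lef1 from 0.31 to -0.07. Over the list, 7 of 12 were positive with Foxb2 in WT (median 0.39), 6 of 12 without WT10 (median -0.01) and 5 of 12 in KO 1 to 10 (median -0.14). Of the 12, Barhl1 (0.47 in WT, -0.35 in KO 1 to 10) and Lef1 (0.31 and -0.36) changed sign between the sets. The others kept their sign in WT, without WT10 and in KO 1 to 10. Among them were Sim2 (0.80 without WT10), Nkx2-4 (0.66), Lhx1 (-0.60) and Uncx (-0.58). With Foxb1, the r of Nkx2-1 was 0.29 in WT and -0.54 in KO 1 to 10, that of Sim1 was -0.80 and -0.42, and that of the Wnt effector gene Lef1 was 0.41 and 0.38.

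**Figure D4:**
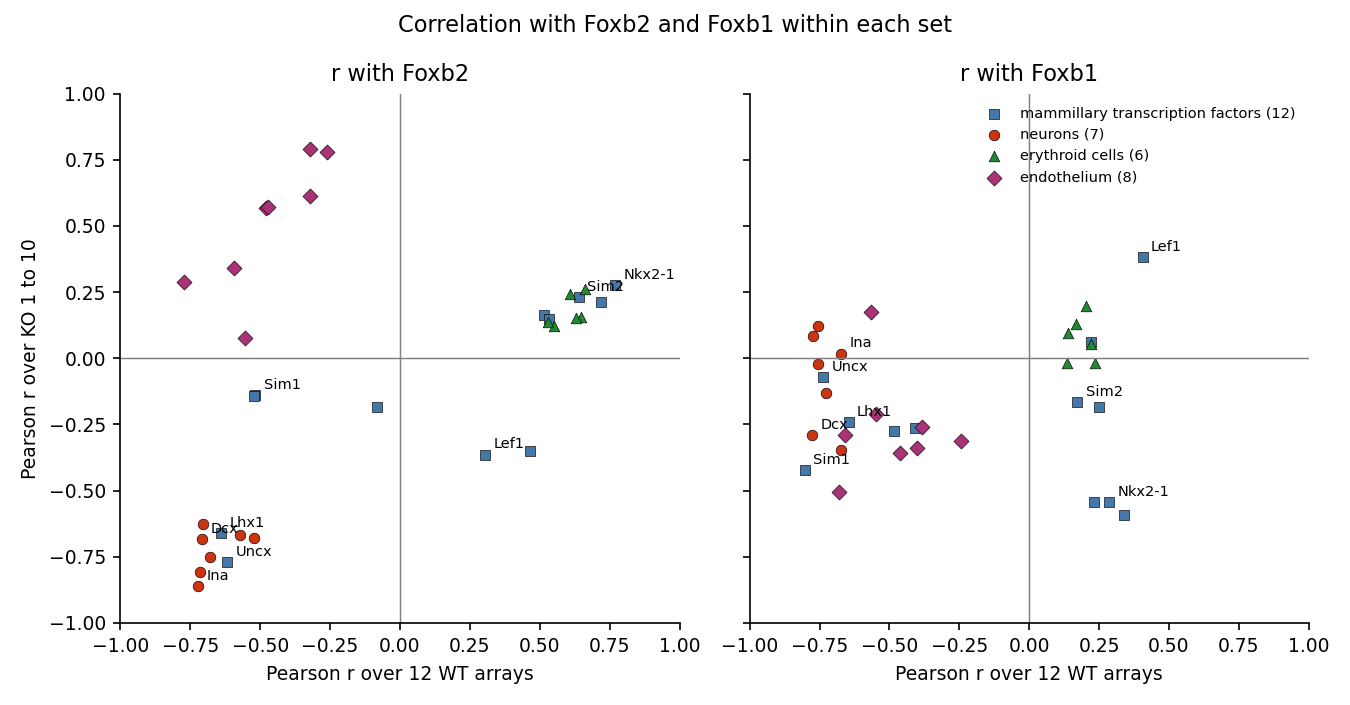
Pearson r with Foxb2 (left) and with Foxb1 (right) over the 12 WT arrays (x axis) and over KO 1 to 10 (y axis), 1 point per gene of 4 marker lists. All 7 neuronal markers lie in the lower left for Foxb2, whereas for Foxb1 they run from -0.35 to 0.12 on the y axis, and the 8 endothelial genes change sign between the sets for Foxb2.

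Markers of other tissues also covaried with the paralogues. The 6 erythroid genes had positive r with Foxb2 (median 0.38, led by the embryonic globins Hbb-bh1 at 0.44 and Hbb-y at 0.40) and r near 0 with Foxb1 (median 0.07, with Hbb-bh1 at 0.18 and Slc4a1 at 0.10). The 8 endothelial genes were all negative with Foxb2 in WT (median -0.48) and all positive in KO 1 to 10 (median 0.57), with Esam at -0.77 and 0.29 and Tie1 at -0.59 and 0.34. With Foxb1 they were negative over all arrays, led by Tie1 (-0.56) and Cdh5 (-0.45). Macrophage genes had a median r with Foxb2 of -0.67 in WT, and of 0.15 with 4 of 6 positive in KO 1 to 10. Over all arrays their medians were -0.53 with Foxb2 and -0.40 with Foxb1, where Mrc1 (-0.68) and Csf1r (-0.66) were lowest with Foxb1, and Fcer1g (-0.59) and Cx3cr1 (-0.57) with Foxb2. Of the mesenchymal genes, 1 of 10 was positive with Foxb2 in WT (median -0.35) and 7 of 10 in KO 1 to 10 (median 0.15). Over all arrays 9 of 10 were negative with each paralogue, and the collagen gene Col1a2 (-0.68) and Pdgfra (-0.58) were lowest with Foxb1, and Col1a1 (-0.48) and Pdgfra (-0.39) with Foxb2. In the surface and oral ectoderm list the keratin genes Krt18 (0.49) and Krt8 (0.47) were positive with Foxb2, and Trp63 (-0.41) and Epcam (-0.26) were the lowest with Foxb1. How far tissue make-up sets the levels of Foxb1 and Foxb2 on an array was not tested.

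The thalamic and pretectal genes were mostly negative with Foxb2, with 0 of 14 positive in KO 1 to 10 (median -0.59). In WT 7 of 14 were positive (median -0.07), but without WT10 the count was 2 of 14 (median -0.53). Over all arrays Gata2 (-0.52) and the proneural gene Neurog2 (-0.52) had the strongest r with Foxb2, and Ebf1 (-0.55) and Irx1 (0.46) with Foxb1.

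The sign of r between Foxb2 and the floor plate genes in WT rested on WT10. Within WT 1 of 9 was positive with Foxb2 (median -0.22), and without WT10 all 9 were (median 0.52), with Shh, the floor plate signal, going from 0.32 to 0.77, Foxa1 from -0.05 to 0.82 and Corin from -0.46 to 0.13. In KO 1 to 10, 3 of 9 were positive (median -0.19). Over all arrays Corin (-0.39) and Shh (0.32) had the strongest r with Foxb2, and Corin (-0.40) and Spon1 (-0.23) with Foxb1.

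In the tuberal and anterior hypothalamus list the neuronal regulators Sox14 (-0.55) and Isl1 (-0.40) had the strongest r with Foxb2, and Isl1 (-0.42) and Sox14 (-0.38) with Foxb1. The list had 7 of 15 positive with Foxb2 in WT (median -0.03), 6 without WT10 (median -0.28) and 7 in KO 1 to 10 (median -0.01). In the caudal list En1 (-0.66) of the midbrain and Hoxb4 (0.66) were strongest with Foxb2, and Hoxb4 (0.52) and Hoxb6 (0.40) with Foxb1. Within WT the r of En1 with Foxb2 was -0.75, or -0.44 without WT10, and within KO 1 to 10 it was -0.23 for En1 and 0.05 for Hoxb4. Of the telencephalic genes, Hesx1 (0.48) and Dmrta2 (-0.30) were strongest with Foxb2, and Tbr1 (-0.27) and Sp8 (0.26) with Foxb1. Of the other forkhead genes, the neuronal regulators Foxp1 (-0.72) and Foxp2 (-0.69) had the strongest r with Foxb1, and Foxh1 (0.55) and Foxj2 (-0.49) with Foxb2. The WT means of Hoxb4 (3.13), Hoxb6 (2.79), Hesx1 (3.29) and Foxh1 (3.78) lay below the array medians (4.64 to 4.76), and background was not estimated.

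The genes beside each paralogue were read to see whether the difference extended along the chromosome. The nearest measured genes on either side of Foxb2 were Vps13a (-0.11 ± 0.07, SE) and Prune2 (-0.03 ± 0.08), 91.2 and 81.8 kb away, and beyond them Gna14 (0.22 ± 0.13) and Gcnt1 (0.13 ± 0.13). None was called by limma in either fit, and all 4 differences were closer to 0 than that of Foxb2. Their WT means were 6.24 for Vps13a, 3.83 for Prune2, 2.99 for Gna14 and 4.11 for Gcnt1. All but Vps13a lay below the array medians (4.64 to 4.76). Background was not estimated, so a decrease in those low genes may not be visible. Around Foxb1 lay Anxa2 (0.23 ± 0.19), Ice2 (-0.14 ± 0.09), Bnip2 (-0.22 ± 0.06) and Gtf2a2 (-0.15 ± 0.10). Only Bnip2, a gene of a BCL2-interacting protein 228.5 kb from Foxb1, was called with genotype alone (adjusted p = 0.00034), and its adjusted p with the term was 0.179.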

How the data were processed

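The authors deposited log2 values of robust multiarray averaging (RMA). Per the labels, Affymetrix Expression Console 1.0 and affy in R 2.7.0 were used; batch adjustment is not given in the sources used here. Columns with misprinted cells were handled as a deposited score, with the 14 cells above 14 set missing. Of 35556 probe sets, 6616 whose numbers lie below the first annotated one were left out. The other 28940 were tested: 21218 had 1 gene symbol, 1881 had several and 5841 had no symbol, and 21185 matched GRCm38.p6 by Entrez number. The brightest cluster stood for a gene. RefSeq promoters were matched by symbol (1 of 2 genes).

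Models were fitted over all 28940 clusters in limma 3.58.1 under R 4.3.3, two-sided, with Benjamini-Hochberg adjustment and calls at an adjusted p below 0.05. Single values were compared by exact permutation and correlations with 100000 permutations (SciPy 1.17.1). The number of arrays limits the precision, and p-values measure the spread between them. Genes and lists were chosen with earlier results of these data known. Named were Foxb1, Foxb2, Lhx5, forkhead genes called in either fit or with the 4 smallest p in each direction, all mammillary factors, the 10 highest and 5 lowest r, the 2 nearest genes on each side and the 2 members of each other list with the largest r in size to each paralogue.

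Simulated arrays were drawn gene by gene from normal distributions with the WT SD of each gene. Unlike the deposited arrays, they held no variation shared between genes apart from 20 genes made to follow another. On these simulated arrays the fit with the term for KO 1 to 10 recovered 82 of 100 genes at 1.5-fold and 96 of 100 at 2-fold. It made 13 false calls, against 1852 with genotype alone. Recovery on the deposited arrays was not tested. On those arrays the same fit called 7 of 28940 clusters. Foxb2 (-1.13, adjusted limma p = 0.0546) and Otp (-1.28, adjusted limma p = 0.404) were not called. Alternatives were other normalizations, filters, weights and terms, and each array left out. Removal of WT10 from r within WT was added after seeing the data. Same-numbered KO and WT arrays correlated at -0.28 to 0.46 after removal of set means (over 0.1 for 4 of 12 numbers), so the numbers were not taken as pairs.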

Additional observations from a re-analysis of the deposited data

How the results depend on the processing

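The Foxb2 difference kept its direction under every alternative run. It passed the threshold at -1.13 with genotype alone, with median centring and with limma-trend, at -1.12 with array weights, and in 5 of the 25 fits that left out 1 array (-1.21 to -1.13 in those 5, -1.24 to -0.93 in all 25). The Foxb1 difference was called in none (-0.27 to -0.08 with 1 array left out). The clusters called, 7 in all, became 4825 with genotype alone, 1 after repeated quantile normalization, 12 after centring, 4 without dim clusters, 30 with array weights and 0 with the replicate block (0 without KO13 to 26 without WT10). The forkhead genes called, 0 in all, became 9 with genotype alone, 1 with centring, array weights or limma-trend, and 0 to 1 with 1 array left out. With the replicate number as a block, which had only 2 numbers in common between KO 11 to 13 and WT, the difference was -0.54 for Foxb1 and -1.67 for Foxb2 (adjusted p 0.508 and 0.345), and Foxb2 minus Foxb1 was -1.13 over those 2 pairs (exact p = 0.5, the smallest possible). Of the 10 genes most like Foxb1, 6 stayed among the first 10 with Spearman, 9 after quantile normalization, 0 with WT alone, 2 with KO 1 to 10 alone and 4 to 9 with 1 array left out. For Foxb2 these counts were 6, 7, 4, 1 and 3 to 10. Without the 2 farthest arrays the correlations within KO 1 to 10 reversed to 0.40 for Foxb1 with Foxb2 and to 0.49 for Foxb2 with Lhx5. The cause of these changes was not tested. The 3 arrays that carry the mutant side of each comparison limit what can be detected, and background was not estimated for Foxb2, whose mutant mean of 4.76 is near the array medians.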
